A study of Macaca fascicularis with 12 samples.

Results

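The transcripts described here are those of 10 antiviral effectors: the viperin gene RSAD2 and its neighbour CMPK2, the kinase PKR (EIF2AK2), the restriction factors SAMD9, SAMD9L and ZC3HAV1 (ZAP), the apoptosis regulator XAF1, and the ADP-ribosyltransferase family members PARP9, PARP12 and PARP14. They were taken as every probe set that carries one of these symbols, and no other, in the array's platform annotation. By that rule 6 genes had 11 of the 52865 probe sets in the table: SAMD9L had 3, XAF1, PARP9 and PARP14 had 2 each, and CMPK2 and PARP12 had 1 each. RSAD2, EIF2AK2, SAMD9 and ZC3HAV1 were not matched to a probe set by symbol and were not analysed here.

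The arrays came from 3 adult male cynomolgus macaques. Into the striatum of the left hemisphere each animal received the baculovirus BV-HSVtk, as 4 injections of 10 µL with 1e8 particles each. The right hemisphere received mock preparation, which was insect cell (Sf9) medium without baculovirus taken through the same purification. Tissue was collected after 2 days, and 2 pieces per hemisphere were put on 1 array each, which gave 6 BV and 6 mock arrays. Because the virus was always on the left, treatment and side cannot be told apart, and no untouched brain was included, so what both injections share is not seen.

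These genes belong to the response that cells mount to interferon after they sense foreign nucleic acid or a virus. Their products act inside the cell: viperin makes an altered nucleotide that stops viral polymerases, PKR halts translation when it binds RNA with paired strands, ZAP binds CpG-rich viral RNA and recruits decay factors, and several PARPs attach ADP-ribose to proteins or read it. In the brain, neurons, astrocytes and microglia can all express such genes when interferon is present. In bulk tissue, more cells of a type and more RNA per cell cannot be told apart.

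Array quality bears on how the values are read. The piece 2 arrays had deposited medians from 25.4 to 32.7 and the piece 1 arrays from 50.2 to 62.8, so the values below are signals after quantile normalization of all 12 arrays. The mock array of replicate 6 stood apart, with a ratio of 3′ to 5′ actin signal of 2.40, where the other 11 arrays lay between 1.10 and 1.40. Replicates 1 and 2 are the 2 pieces of animal 1, replicates 3 and 4 those of animal 2, and replicates 5 and 6 those of animal 3. Differences are BV minus mock on a log2(signal + 3.49) scale, where the added constant understates differences of dim probe sets. By Dixon's criterion no array was an outlier within its group for any of the 11 probe sets.

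All 6 genes were higher in BV tissue than in mock tissue by their brightest probe set, in each of the 3 animals, with log2 differences from 1.20 for SAMD9L to 2.04 for CMPK2. None of them passed in the limma fit after Benjamini-Hochberg adjustment over 31660 tested probe sets, where 9 probe sets, or 0.0284%, passed as raised. Before adjustment, 8 of the 9 tested probe sets of these genes had a p under 0.05 with higher values in BV tissue, against 5.15% of all tested probe sets. With lower values, 1 of the 9 had such a p, against 1156 of the 31660. The median difference over the 6 genes was 1.48. Over all tested probe sets it was -0.02, and 46.9% of them were higher in BV tissue. In all, 5 of the 6 genes were higher in each of the 6 pairs of arrays that share a replicate number, against 3.37% of all tested probe sets, and XAF1 was higher in 5 of the 6 pairs. These counts cover the 9 probe sets that passed the filter on low mean signal, and 2 dim probe sets of SAMD9L did not.

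**Figure D1:**
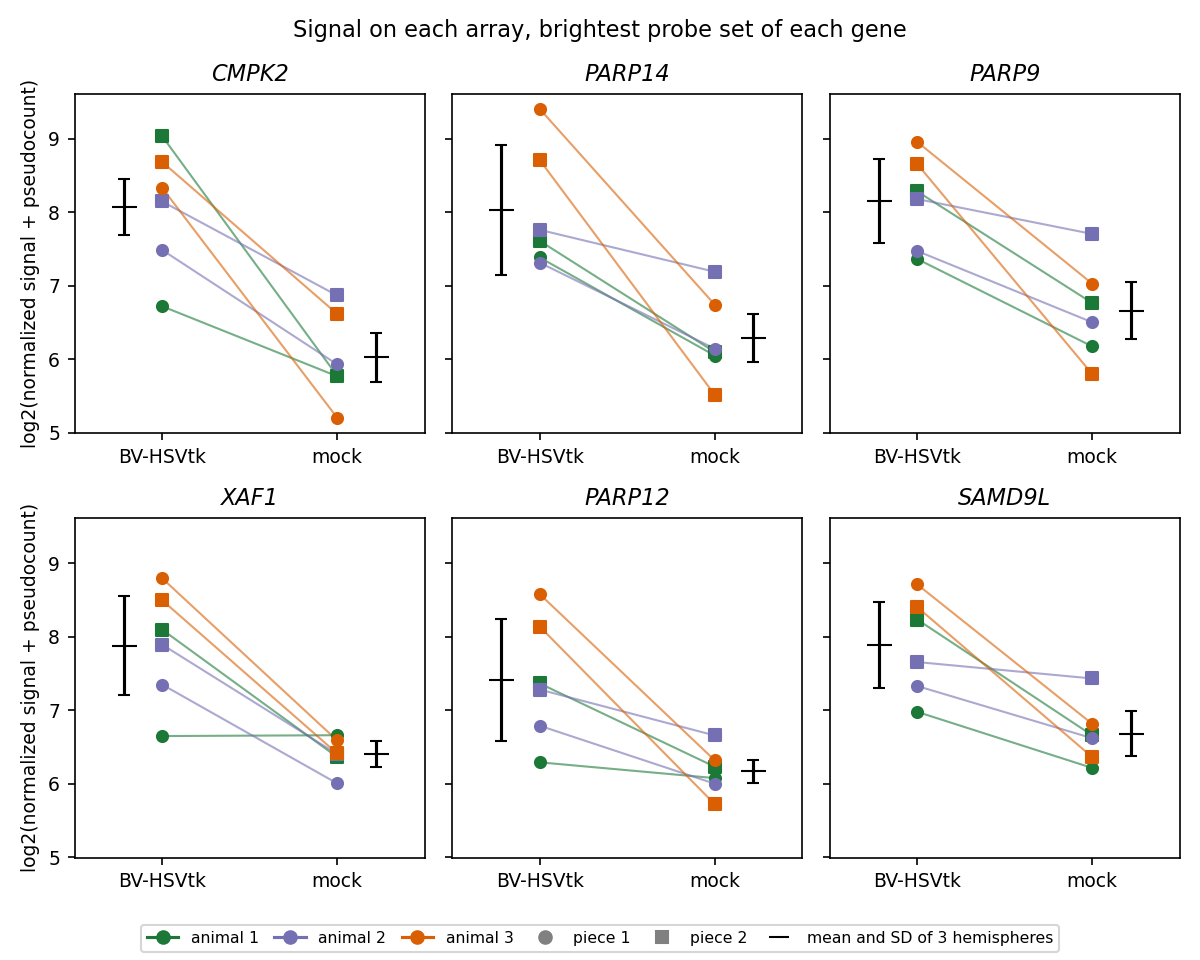
Normalized signal on each array for the brightest probe set of each gene, on a log2 axis, with BV-HSVtk on the left and mock on the right of each panel. Lines join arrays of the same replicate number, colours mark the 3 animals, circles piece 1 and squares piece 2, and black bars the mean and SD of the 3 hemisphere values; every line runs lower on the mock side except that of XAF1 in replicate 1, whose difference was -0.01.

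CMPK2, a mitochondrial kinase that phosphorylates UMP and CMP, lies beside RSAD2 in the macaque genome (assembly T2T-MFA8v1.1) and had the highest difference of the 6. Its signal was between 101.8 and 519.9 on the BV arrays with a median of 299, against 33.3 to 113.1 with a median of 54.3 on the mock arrays. The groups overlapped only between the lowest BV array, that of replicate 1, and the highest mock array, that of replicate 4. Averaged per hemisphere, the signal was 231, 222 and 360 in the BV hemispheres of animals 1, 2 and 3, against 51.0, 80.8 and 56.6 in their mock hemispheres, so that every BV hemisphere exceeded every mock hemisphere. The log2 difference was 2.04 ± 0.24 (SE of the limma fit, 3 animals), a 4.11-fold higher level (adjusted p = 0.173). That SE borrows variance from all tested probe sets, so it is not the spread between animals. The SD of the difference over the 3 animals was 0.59 for CMPK2, 1.06 for PARP14 and 0.95 for PARP12 (brightest probe sets). Values after ± below are SEs of a limma fit unless marked SD. CMPK2 was the only one of the 6 genes with a difference above 1 in each animal, at 2.11, 1.42 and 2.60, which 0.265% of all tested probe sets shared. It was also the only one to pass when single arrays were fitted with the 6 replicate numbers as blocks (adjusted p = 0.0494). That fit treats an animal's 2 pieces as if they were separate animals, and it called 0.167% of probe sets raised.

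The brightest probe sets of the 3 PARPs were higher in BV tissue in 6 of 6 pairs. PARP14, an enzyme that adds single ADP-ribose units and carries macrodomains that bind them, had signals between 155 and 673 on the BV arrays with a median of 202, against 42.2 to 142.3 with a median of 66.1 on the mock arrays. All 6 BV arrays lay above all 6 mock arrays, as they did for 0.237% of tested probe sets. The difference was 1.74 ± 0.38, or 3.34-fold (adjusted p = 0.440). The gene's other probe set gave 1.30 ± 0.29 (adjusted p = 0.440), again higher in 6 of 6 pairs, with mock arrays up to 125.1 overlapping the BV arrays of replicates 1 and 3.

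PARP9 has little or no transferase activity of its own and works as a pair with the ubiquitin ligase DTX3L, whose gene is its neighbour. Its brighter probe set had signals between 160.9 and 492 on the BV arrays with a median of 297, against 52.1 to 205 with a median of 96.1 on the mock arrays. The highest mock array, that of replicate 4, lay above the BV arrays of replicates 1 and 3. The difference was 1.49 ± 0.32, or 2.81-fold (adjusted p = 0.424). The second PARP9 probe set went the other way. Its signals were low, between 21.9 and 60.1 with a median of 37.9 on the BV arrays, against 45.5 to 76.2 with a median of 49.3 on the mock arrays, and they were lower in BV tissue in 5 of 6 pairs. Its difference was -0.47 ± 0.16 (adjusted p = 0.564), so the array gives no single direction for PARP9, and averaging both probe sets left 0.51. The size of this lower value was not steady. Its highest mock signal was on the array of replicate 6, which had the high actin ratio, and without that replicate the difference was -0.26. It was -0.11 in the piece 1 arrays and -0.83 in the piece 2 arrays, and kept its sign in all 23 alternatives run. Which transcript each probe set binds was not tested, since probe sequences were not used here.

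PARP12, a zinc-finger relative of ZAP that adds single ADP-ribose units, had signals between 74.7 and 378 on the BV arrays with a median of 156, against 49.2 to 97.3 with a median of 67.7 on the mock arrays. Only the BV array of replicate 1 fell inside the mock range. The difference was 1.24 ± 0.35, or 2.36-fold (adjusted p = 0.559), made of 0.67, 0.71 and 2.34 in animals 1, 2 and 3.

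**Figure D2:**
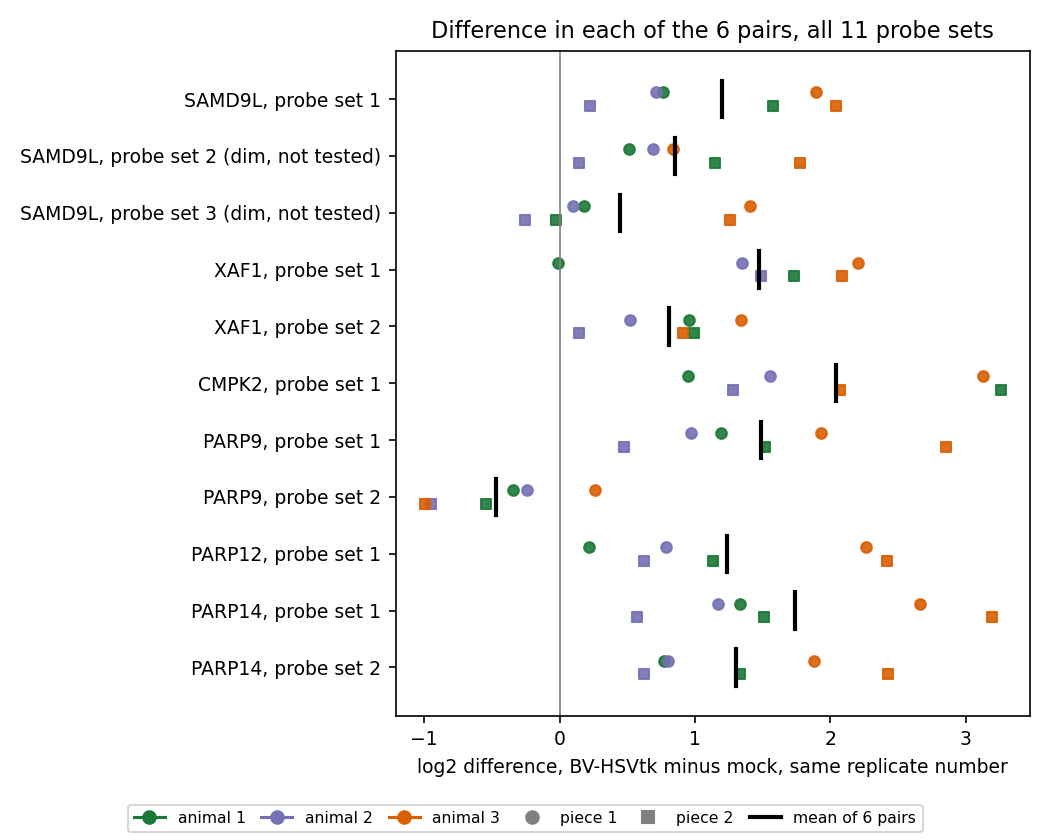
Log2 difference between the BV-HSVtk and the mock array of the same replicate number (horizontal axis) for all 11 probe sets (rows), with colours for the 3 animals, circles for piece 1, squares for piece 2 and a black line at the mean of 6 pairs. The second PARP9 probe set lies mostly below 0, with a mean of -0.47, while the other probe sets have means from 0.44 to 2.04.

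XAF1 binds the caspase inhibitor XIAP and counters it, which favours apoptosis. Its brighter probe set had signals between 96.7 and 440 on the BV arrays with a median of 252, against 60.6 to 97.5 with a median of 81.3 on the mock arrays. The BV array of replicate 1 fell inside the mock range, and the other 5 BV arrays lay above it. The difference was 1.47 ± 0.26, or 2.78-fold (adjusted p = 0.323). The second, dimmer XAF1 probe set had BV signals of 45.7 to 71.7 and mock signals of 23.1 to 41.0, with no overlap. Its difference was smaller, at 0.81 ± 0.21 (adjusted p = 0.522), but higher in 6 of 6 pairs.

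SAMD9L restricts poxviruses and other viruses by lowering translation, and lies next to its paralogue SAMD9. Its brightest probe set had signals between 122.4 and 415 on the BV arrays with a median of 247, against 70.7 to 169 with a median of 96.0 on the mock arrays. The overlap came from the mock array of replicate 4, which lay above the BV arrays of replicates 1 and 3. The difference was 1.20 ± 0.29, or 2.30-fold (adjusted p = 0.481). Of the 2 dim probe sets left out of the test, one had a mean difference of 0.85 and was higher in 6 of 6 pairs, and the other had 0.44 and was higher in 4. SAMD9 and SAMD9L are similar in sequence, and how far these probe sets bind both was not tested.

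**Figure D3:**
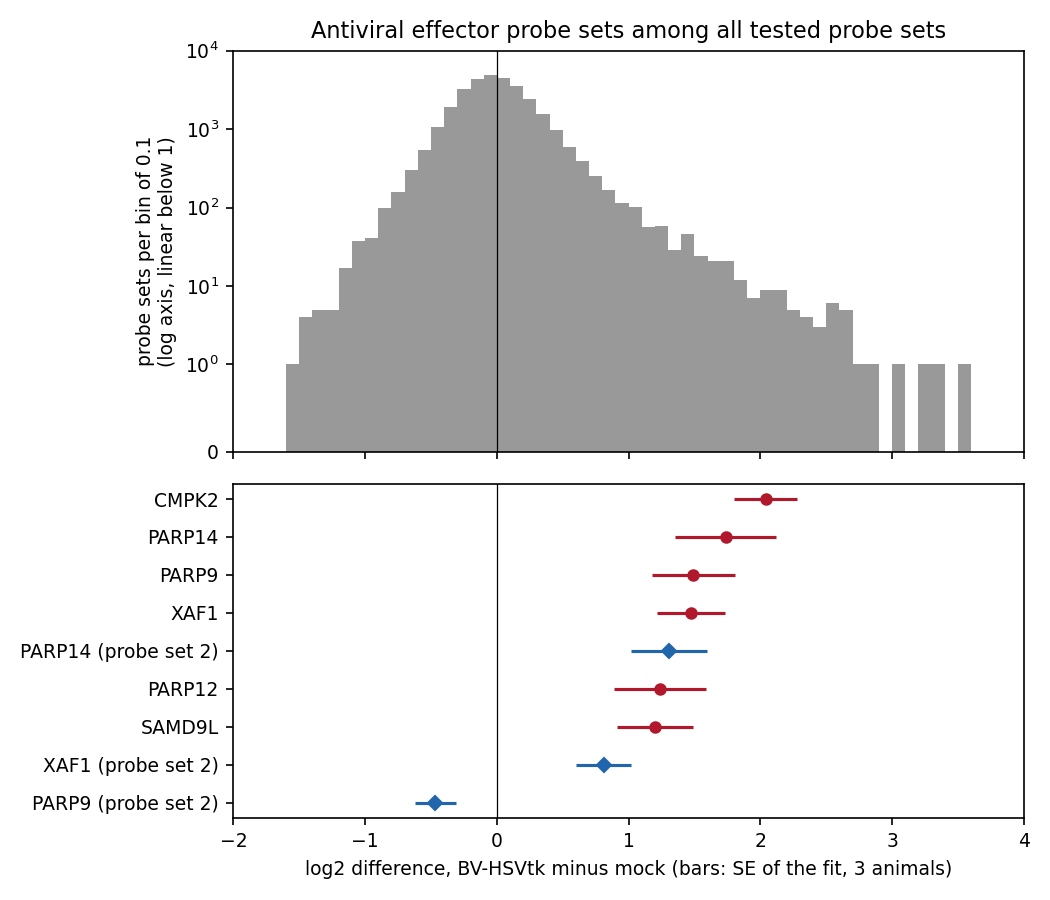
The upper panel shows the number of tested probe sets (log axis, linear below 1) by log2 difference between BV-HSVtk and mock tissue, and the lower panel the 9 tested probe sets of the antiviral effectors with the SE of the limma fit. Red circles are the brightest probe set of each gene, from 1.20 to 2.04, and blue diamonds second probe sets, with PARP9 at -0.47; the median of all tested probe sets is -0.02.

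Ordered by difference, the genes ran CMPK2, PARP14, PARP9, XAF1, PARP12 and SAMD9L. Neighbours in that order were separated by 0.02 to 0.30, and for 4 of the 5 neighbouring pairs the separation was smaller than its SD over the 3 animals. The separation of PARP14 from PARP9 was 0.250 with an SD of 0.249. The ends of the order were further apart: CMPK2 exceeded SAMD9L by 0.84 ± 0.18 (SD, n = 3), in 3 of 3 animals. Those genes were picked as the ends by these same values, so their separation does not test the order. With 3 animals an exact paired permutation test cannot go below p = 0.25, two-sided.

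The size of the observed difference varied between the 3 animals. All 6 genes had their largest difference in animal 3, where the median was 2.37, against 1.26 in animal 1 and 0.80 in animal 2. The BV hemisphere of animal 3 held the highest signal for all 6 genes, between 1.59 and 2.94 times the mean of the other 2 BV hemispheres. The BV hemispheres of animals 1 and 2 were close to each other, within 1.19-fold for every gene. What separated those animals was more often the mock side, where the hemisphere of animal 2 had the highest signal for 5 of the 6 genes, XAF1 being the exception. That came mostly from 1 array, the mock array of replicate 4, where the mean log2 signal of the 6 genes was 7.04. The other piece of that hemisphere, replicate 3, had 6.20, and the mock arrays of animals 1 and 3 had 6.07 to 6.45. For PARP9, the signals were 223, 223 and 443 in the BV hemispheres of animals 1, 2 and 3, against 85.0, 134 and 81.6 in the mock hemispheres. Over all tested probe sets, 40% had their largest difference in animal 3, 38.3% their highest BV signal in animal 3 and 31.7% their highest mock signal in animal 2.

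The calls depended on which animals were fitted. Without animal 2, 8 of the 9 tested probe sets passed as raised (adjusted p from 7.85e-05 to 0.0252), against 3.67% of all tested probe sets, and the second PARP9 probe set did not. Without animal 3, only CMPK2 passed (adjusted p = 0.0217), against 0.246% of all tested probe sets. Without animal 1 none of them did. Each of these fits held only 2 animals, so their p-values rest mostly on the variance that eBayes takes from all probe sets. Without animal 2, 684 of the 31660 probe sets also passed as lowered, against 0 in the main fit. Animal 2 had the smallest difference for 4 of the 6 genes, as for 35.9% of all tested probe sets. Leaving out animal 3 lowered PARP14 to 1.15 and PARP12 to 0.69. A limma F test of the interaction between animal and treatment on single arrays called 0% of probe sets after adjustment. Its error is the spread between the 2 pieces of a hemisphere, so it sets differences between animals against differences between pieces. At an unadjusted p under 0.05 it held PARP12 and PARP14 (brightest probe set), 2 of the 9, against 2.32% of all tested probe sets.

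The 2 array sets gave the same direction for all 6 genes. The median difference was 1.27 in the piece 1 arrays and 1.69 in the piece 2 arrays. The test of the difference between the pieces passed for 0 of the 31660 probe sets after adjustment. Without adjustment, 1 of the 9 probe sets had a p under 0.05, the second one of PARP9, against 2.4% of all tested probe sets. Its difference between pieces was -0.72 ± 0.29 (adjusted p = 1.00, limma). The pieces of animal 1 were far apart for CMPK2, with 0.95 in replicate 1 and 3.26 in replicate 2, and for XAF1, with -0.01 and 1.73 in the same pairs.

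Genes that work with these effectors mostly moved less. The counts of higher genes in the lists below stand against 46.9% of all tested probe sets higher in BV tissue. Of 19 other PARP genes, partners and readers of ADP-ribose, 15 were measured, 12 of them higher in BV tissue, with a median difference of 0.10 and none past the adjusted threshold. DTX3L, the partner of PARP9, stood out from the rest of that list. Its signals were between 173 and 842 on the BV arrays with a median of 351, against 98.6 to 251 with a median of 133 on the mock arrays, and were higher in 6 of 6 pairs. The difference was 1.27 ± 0.31 (adjusted p = 0.502), close in size to those of PARP9 and PARP12. PARP10 had 0.44 ± 0.15 (adjusted p = 0.564) by its brighter probe set and 0.89 by the other, and PARP8 0.30 ± 0.16 (adjusted p = 0.571). PARP15, the neighbour of PARP14, had -0.12 ± 0.19 (adjusted p = 0.806), and PARP1, the nuclear DNA repair enzyme, 0.04 ± 0.13 (adjusted p = 0.912).

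**Figure D4:**
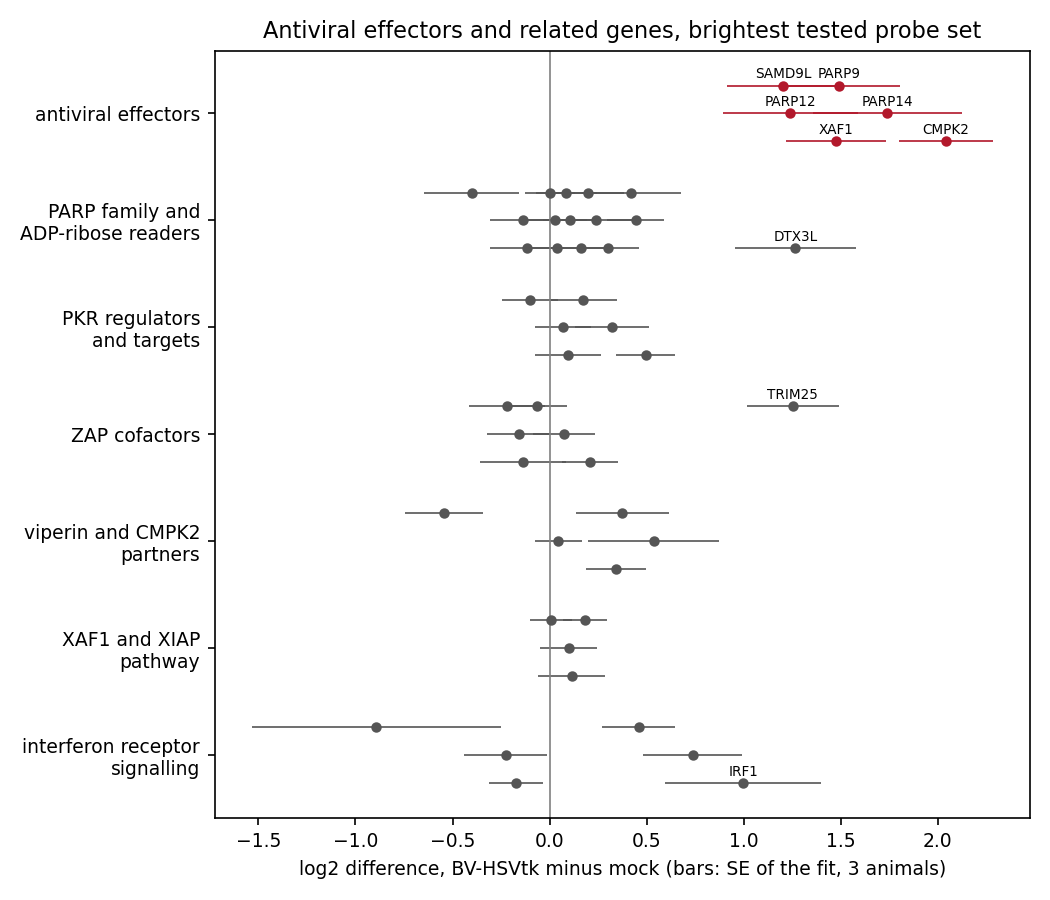
Log2 difference between BV-HSVtk and mock tissue (horizontal axis, bars the SE of the limma fit over 3 animals) for the 6 antiviral effectors in red and for measured genes of 6 related lists in grey. DTX3L at 1.27 and TRIM25 at 1.25 lie in the range of the effectors, while the medians of the related lists lie between -0.07 and 0.34.

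The cofactors of ZAP showed a similar split. Of 9 listed, 7 were measured, 3 higher and 4 lower, with a median of -0.07. TRIM25, a ubiquitin ligase that ZAP needs to block translation, had signals between 231 and 671 on the BV arrays with a median of 412, against 138 to 202 with a median of 158 on the mock arrays, with no overlap. Its difference was 1.25 ± 0.24 (adjusted p = 0.375), and the gene's other tested probe sets had 1.21 and -0.11. EXOSC3, a subunit of the RNA exosome, had 0.21 ± 0.14 (adjusted p = 0.60) and the decapping factor DCP1A -0.22 ± 0.20 (adjusted p = 0.661).

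Around PKR, 6 of 13 listed regulators and targets were measured, 5 of them higher, with a median of 0.13. ATF4, the transcription factor translated when eIF2 is phosphorylated, had signals of 1668 to 2327 on the BV arrays, against 815 to 1657 on the mock arrays, and was higher in 6 of 6 pairs. Its difference was 0.49 ± 0.15 (adjusted p = 0.564). EIF2AK3, the eIF2 kinase of the endoplasmic reticulum, had 0.32 ± 0.19 (adjusted p = 0.581) and EIF2S1, the subunit that PKR phosphorylates, 0.17 ± 0.17 (adjusted p = 0.691). As phosphorylation is not measured by an array, these values say nothing of PKR activity.

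Of 8 listed partners of viperin and CMPK2, 5 were measured, 4 higher, with a median of 0.34. IRAK1, a kinase of Toll-like receptor signalling, had -0.54 ± 0.20 (adjusted p = 0.564), CIAO1, which helps insert iron-sulfur clusters, 0.34 ± 0.16 (adjusted p = 0.569) and HADHB, an enzyme of fatty acid oxidation, 0.54 ± 0.34 (adjusted p = 0.587). Of 10 genes of the XIAP pathway that XAF1 acts on, 4 were measured, all higher by little, with a median of 0.11: DIABLO, an XIAP antagonist, had 0.18 ± 0.11 (adjusted p = 0.584), HTRA2, a mitochondrial protease, 0.10 ± 0.15 (adjusted p = 0.785) and BIRC3, a relative of XIAP, 0.11 ± 0.17 (adjusted p = 0.792).

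Upstream, 6 of 12 genes of interferon receptor signalling were measured, 3 higher and 3 lower, with a median of 0.14. IFNAR2, a chain of the type I interferon receptor, had 0.74 ± 0.25 (adjusted p = 0.564), IRF1, a transcription factor, 1.00 ± 0.40 (adjusted p = 0.564) and STAT2, part of the factor that binds the promoters of interferon-stimulated genes, 0.46 ± 0.19 (adjusted p = 0.564). The 3 lower genes were IRF7, a transcription factor that amplifies interferon production, at -0.89 ± 0.64 (adjusted p = 0.608), the receptor-bound kinase TYK2 at -0.23 ± 0.21 (adjusted p = 0.677) and the feedback inhibitor SOCS1 at -0.17 ± 0.14 (adjusted p = 0.634). IRF7 had no steady direction, being higher in 3 of 6 pairs. Its signals ran from 60.7 to 938 on the BV arrays and from 52.5 to 1938 on the mock arrays. The gene has 2 probe sets, and only the brightest tested one was read. None of the members of these 6 lists passed in the fit of hemisphere means or in that of single arrays.

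The genes whose 6 pair differences lay nearest to the median pattern of the effectors were TYMP, UNC93B1, NLRC5, TRIM25 and MLKL, of 11137 other named genes compared. Their root mean square distances over the 6 pairs ran from 0.229 for TYMP to 0.305 for MLKL, where the median gene was at 1.59. For the effectors themselves the distance ran from 0.269 for SAMD9L to 0.864 for CMPK2, so CMPK2 lay furthest from the median. The distance counts the size of the differences as well as their pattern over the pairs. Each effector also entered the median it was set against, which the other genes did not, so the ranges are not alike. TYMP, which breaks down thymidine, had a difference of 1.47 ± 0.30 (adjusted p = 0.422). UNC93B1, which carries nucleic acid sensors to endosomes, had 1.28 ± 0.22 (adjusted p = 0.323), and NLRC5, the activator of MHC class I genes, had 1.28 ± 0.35 (adjusted p = 0.538). MLKL, the effector of necroptosis, had 1.40 ± 0.25 (adjusted p = 0.323).

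Markers of other cells and of regions were read from the same fit, and none of them passed after adjustment in it or in the fit of single arrays. In the fit of hemisphere means 46.9% of all tested probe sets were higher in BV tissue. Of 7 neutrophil and monocyte markers all 7 were measured and higher in BV tissue, with a median difference of 1.08, and their mean log2 signal ran from 6.61 to 8.90 on the BV arrays and from 5.65 to 8.66 on the mock arrays. Their medians were 1.80, 0.03 and 1.37 in animals 1, 2 and 3. LYZ, at 1.47 ± 0.40 (adjusted p = 0.544), and FCN1, at 1.51 ± 0.40 (adjusted p = 0.535), were higher in 6 of 6 pairs. FCN1 was dim, with mock signals down to 2.1. Its mean log2 signal was 4.25 on the mock arrays and 5.76 on the BV arrays, where the filter cut at 4.95. It was thus tested only because of its BV values. With the mean of these markers as a covariate on single arrays, the 6 differences ran from 0.61 for SAMD9L to 1.45 for CMPK2, with 0.85 for PARP9, 0.81 for PARP12 and 1.14 for PARP14. Of 7 microglial markers 5 were higher, with a median of 0.18. Among them the complement genes C1QB, at 0.95 ± 0.17 (adjusted p = 0.323), and C1QA, at 0.58 ± 0.11 (adjusted p = 0.397), were higher in 6 of 6 pairs, while CX3CR1 had -0.33 and P2RY12 -0.10. For the 3 markers of T and NK cells that were measured the median was 0.69, with GZMB at 1.08, NKG7 at 0.69 and CD8A at 0.0029, and CD3D and CD3E had no tested probe set. Of 5 astrocyte markers 2 were higher and 3 lower, with a median of 0.00. SLC1A2, the main glutamate transporter, had -0.998 ± 0.199 (adjusted p = 0.407) and S100B -0.28 ± 0.08 (adjusted p = 0.564), both lower in 6 of 6 pairs. The medians of 2 oligodendrocyte and 2 blood cell markers were 0.06 and -0.06.

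Tissue markers showed brain in every array, with mean log2 signals of 11.01 to 12.01 on the BV arrays and 10.997 to 12.04 on the mock arrays for 4 neuronal markers. The 6 measured markers of medium spiny neurons, the main striatal cell type, had a median of -1.06 and ranged from 5.40 to 9.45 on the BV arrays and from 5.81 to 10.5 on the mock arrays. Their medians were -1.72, 1.04 and -2.30 in animals 1, 2 and 3, so the sign turned in animal 2, and none had an unadjusted p under 0.05. The 6 thalamic markers had a median of 0.94, with 5 higher, 4 of them with an unadjusted p under 0.05, and medians of 1.33, 0.60 and 0.87 in the 3 animals. With the thalamic mean as a covariate on single arrays the median difference of the effectors was 1.23. CMPK2 then had 1.35, XAF1 and PARP12 1.10 each and SAMD9L 1.07, all lower than in the main fit. PARP14 had 1.85 and PARP9 1.60, both higher than in the main fit, so CMPK2 was not the highest there. Without replicate 6, which holds the array of high actin ratio, the median of the effectors was 1.41 and CMPK2 had 2.22. The part of cell and region content in these differences was otherwise not tested.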

How the data were processed

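The authors deposited linear probe set intensities of biotin-labelled RNA, 1 column per array. GCOS 1.4.0.036 is named per the submitters' processing notes, and no source used here states the summary algorithm, scaling target or genome build. Labelling started from 5 µg of RNA and pieces weighed about 100 mg, per the labels' protocols. The piece 2 arrays had trimmed means (2% of values off each end) near 99.99, and the piece 1 arrays between 142 and 189.

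The 12 arrays were quantile-normalized in limma 3.58.1 (R 4.3.3) and taken as log2(signal + 3.49), the 10th percentile of deposited values. Control probe sets (99) were dropped, and the 31660 of 52766 others at or above the 40th percentile of mean log2 value were tested. The pieces of a hemisphere were averaged and fitted with animal as the block, 2 residual degrees of freedom and a variance trend in eBayes. Tests were two-sided, and p-values were adjusted by Benjamini and Hochberg's method with a threshold of 0.05. The pairing follows from the protocol; the deviations of an animal's hemispheres correlated at 0.622, 0.156 and 0.361. A gene stands by its brightest tested probe set. Platform symbols (24969 probe sets with 1, 361 with several, 27535 with none listed) are those of a rhesus array and can be old. The fit was tested on simulated data. Genes named are all members, up to 3 genes of smallest p per related list, and the 5 nearest in pattern; PARP1, PARP15, IRF7, TYK2, SOCS1 and the cell markers were added after their values were seen. Members and lists were chosen with earlier results of these data known. Alternatives are listed in the closing section. The number of animals limits the precision.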

Additional observations from a re-analysis of the deposited data

How the results depend on the processing

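The differences of the 6 genes kept their sign in all alternatives run, and all 6 had higher values with an unadjusted p under 0.05 in each except the covariate of neutrophil and monocyte markers, where 4 did. Their median difference ran from 1.00 under that covariate to 1.72 without animal 2. No tested probe set of these genes passed with a pseudocount of 1 or 16, no normalization, median centring, normalization within each piece set, no filter or one at the 60th percentile, no variance trend, either array set alone or either covariate. With the replicate block on single arrays 1 passed (CMPK2), as 1 did with duplicateCorrelation and a piece term. Leaving out an animal, or both arrays of a replicate number, gave 0 to 8, the 8 without animal 2 and 1 without animal 3. The count over all probe sets was less stable. It was 9 in the main fit. Without normalization it was 1, without the filter 5 and without the trend 1. Hemisphere means fitted without the animal block gave 4. On single arrays it was 55 with the replicate block and 49 with duplicateCorrelation. The count was 14 in the piece 1 arrays and 0 in the piece 2 arrays (1747 at an unadjusted p under 0.05). It was 0 with either covariate (2968 for the thalamic and 783 for the neutrophil and monocyte one), and 0 to 1845 when an animal or a replicate number was left out: 1, 1845 and 82 without animals 1, 2 and 3, and 5, 0, 1, 27, 0 and 13 without replicates 1 to 6. The cause was not tested. The interaction counts stayed at 0 under the scaling and filter alternatives. The unadjusted count and the interaction alternatives were chosen after seeing the data. Single arrays were left out only with the array of the same number, so that both hemispheres kept the same pieces.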
